A study of Mus musculus with 8 samples.

Results

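The genes described here are the canonical histone genes of the mouse and their linker histone relatives, taken as every protein-coding row of the deposited table whose symbol starts with H1f, H2ac, H2bc, H3c or H4c and a number. The rule found 55 genes among the 23045 in the table: 8 of H1, 12 of H2A, 14 of H2B, 10 of H3 and 11 of H4. Of these, 43 were measurable, with a mean of at least 1 over the 8 libraries, and 12 were not. The libraries were total RNA of mouse hearts, 4 from WT animals (Mettl3lox/lox) and 4 from Mettl3 KO animals (Mettl3lox/lox:alphaMHC-MerCreMerpos). Mettl3 is the catalytic subunit of the enzyme that writes N6-methyladenosine (m6A) on RNA. Both genotypes carried the floxed Mettl3 alleles, and per the study's methods mice of 10 to 16 weeks received tamoxifen intraperitoneally on 7 consecutive days at 100 µg per g body weight. The Cre is driven by a cardiomyocyte promoter and is present only in the Mettl3 KO animals, so that an effect of the MerCreMer protein cannot be told apart from one of the deletion, and other cells of the heart keep Mettl3. The comparison asks whether transcripts of histone genes differ between these hearts.

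Canonical histone mRNAs are made in large amounts during S phase, when DNA is copied, and are removed when replication ends. Instead of a poly(A) tail they end in a short stem-loop, which is bound by the protein SLBP and recognised together with the U7 snRNP when the transcript is cut. Most cardiomyocytes of the adult heart no longer divide. A few members of the set are exceptions: H1f0 and H1f10 are linker histones that are made outside S phase, and H1f6 is a linker histone of the testis.

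Not a single measurable histone gene differed between the genotypes at an adjusted p under 0.05 (limma, Benjamini-Hochberg over all tested genes), whereas 7.91% of the 20313 genes tested were called, 4.72% as higher and 3.19% as lower. At an unadjusted p under 0.05, limma gave 3 of the 43, beside 20.6% of all genes, and limma voom also called 0 genes. The depth limits what could be called for most of them. Of the genes with a mean of at least 10, 0 of 12 histone genes and 11% of all were called. Of those with a mean of 1 to under 10, 0 of 31 histone genes and 1.46% of all were called. H4c8, which encodes histone H4, was the 1 gene whose values did not overlap between the genotypes, beside 11.5% of all genes tested (6.46% with higher values in Mettl3 KO libraries). The median log2 fold change of the 43 genes was -0.06, beside -0.01 over all genes tested, with 18 values above and 25 below 0.

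Values are read numbers per gene scaled between libraries and rounded to whole numbers, called normalized values here. They summed to between 2839589 and 2916986 per library. Reads recovered from the rounding numbered 2908246 to 3061260 in WT and 2631904 to 3052879 in Mettl3 KO libraries, so that 3 reads correspond to a value of 2.78 to 3.33. Mettl3 itself had values of 105, 133, 118 and 107 in the WT group against 74, 68, 69 and 78 in the Mettl3 KO group. The groups did not overlap, with a log2 fold change of -0.67 (SE 0.10, adjusted p = 0.000184 by limma), which places the Mettl3 KO mean at 62.4% of WT. The labels and methods do not say that each library came from a separate mouse, and p-values measure the spread between these libraries. In RNA of heart tissue, fewer cells of a type and less RNA per cell cannot be told apart.

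By the deposited mm39 coordinates, 42 of the genes lie on chromosome 13 between positions 21900592 and 23948389, 7 on chromosome 3 between 96127181 and 96177448, and 3 on chromosome 11 between 58839746 and 58847656. H1f0 lies apart on chromosome 15, and H1f10 and H4c16 lie on chromosome 6. The stem-loop was searched for by its consensus, a stem of 6 base pairs with a loop of 4 bases, in annotated transcripts (GENCODE vM21, genome build GRCm38), to which 54 of the 55 genes could be matched. It was found in 38 of the 54 (70.4%), and in 52 of all 15073 measured protein-coding genes so matched (0.345%). Of the 16 genes without a match, 7 are annotated as coding sequence alone, which ends before the place of a stem-loop. No match means only that the consensus is not in these transcripts. The stem differed by class. It opened with GGCTC in 28 genes, of H1, H2A, H2B and H3, with GGCCC in 9 H4 genes and with GGTCC in 1 H4 gene. The stem-loops of 4 genes show this, with 5 bases on either side and the stem and loop in capitals. H1f2 and H2bc6 carry the form of the H1, H2A, H2B and H3 genes, H4c8 and H4c4 that of the H4 genes.
H1f2: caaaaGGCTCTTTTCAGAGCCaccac
H2bc6: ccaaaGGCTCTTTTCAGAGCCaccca
H4c8: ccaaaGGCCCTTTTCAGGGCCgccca
H4c4: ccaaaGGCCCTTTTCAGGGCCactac

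The annotated transcripts differed in what follows the loop. In 21 genes the transcript ends 11 to 185 bases after it, and in 17 genes it runs on for 330 to 4884 bases. The limit of 200 bases between both kinds was chosen after the values were seen, and levels are given as a description. All 17 genes with the longer end were measurable, 7 of them with a mean of at least 10. Of the 21 with the short end, 12 were measurable and 2, H2ac20 and H4c8, had a mean of at least 10. Per kilobase of annotated exon, the median level was 4.34 for the longer and 2.32 for the short end, and 10.2 for the 16 genes without a match. A windowed count of how many stretches of read length (72 bases) occur in no other gene's transcripts gave a median of 82.8% for the genes with the longer end, 57.1% for the short end and 34.4% for those without a match. The authors left out reads that map to several places, so that genes with few such stretches lose reads, and the part of this in the levels was not tested.

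Levels of different genes are compared per kilobase of annotated exon. H1f0 had the highest mean level, at 125 per kilobase, followed by H1f2 with 94.7, H2bc4 with 77.5, H2ac20 with 50.2, H4c8 with 35.4 and H1f4 with 32.6. Each of the 12 genes whose mean reached 10 had over 50% of its stretches unique, from 57.1% to 100%. Of the 31 with a mean of 1 to under 10, 12 fell under 50%, and of the 11 matched genes with a mean under 1, 7 did. H2bc18, at 24.0 per kilobase, had 0% unique stretches and overlaps Gm42743 on the same strand, so its value is uncertain. Likewise, the long annotated span of H2bc6 (37455 bases) runs over H1f4 on the same strand, and H2ac25 overlaps Trim17. Summed per kilobase, H1 genes reached 282, H2B 159, H2A 105, H4 102 and H3 23.6. The H3 genes were also low one by one, the highest being H3c4 with 4.90 per kilobase, and a median of 47.1% of their stretches were unique, against 40.8% for H2A, 62.9% for H2B, 76.8% for H4 and 96.9% for H1.

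**Figure D1:**
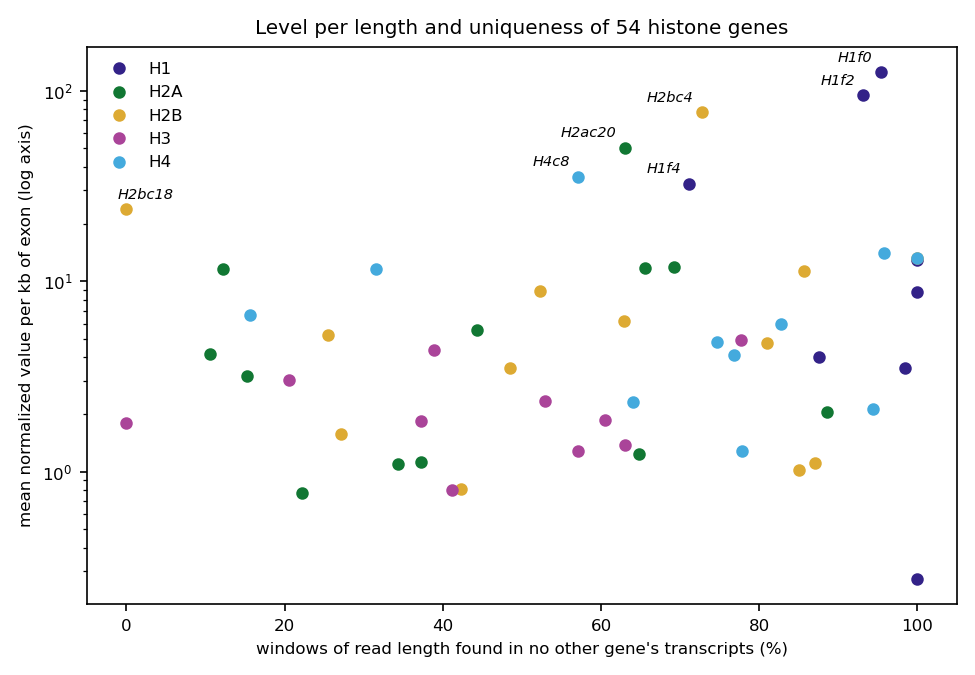
Mean normalized value over 8 libraries per kilobase of annotated exon (log axis) against the percentage of 72-base stretches that occur in no other gene's transcripts, 1 point per histone gene for the 54 matched genes, coloured by class. H1f0, H1f2 and H2bc4 stand at the top (125, 94.7 and 77.5 per kilobase), and the H3 genes do not exceed 4.90.

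Among the linker histones, which bind the DNA between nucleosomes, H1f0 (chr15:78912650-78914704, + strand) had normalized values of 288, 260, 274 and 229 in the WT group against 259, 259, 228 and 261 in the Mettl3 KO group. The ranges overlapped, and the log2 fold change was -0.06 (95% interval -0.21 to 0.09, limma adjusted p = 0.736). H1f2 (chr13:23922791-23924350, + strand) had 154, 137, 144 and 133 in the WT group against 151, 164, 156 and 143 in the Mettl3 KO group. The groups overlapped, with a log2 fold change of 0.11 (95% interval -0.05 to 0.28, limma adjusted p = 0.486). H1f4 (chr13:23804612-23806541, - strand) had 62, 71, 60 and 67 in the WT group against 70, 56, 56 and 61 in the Mettl3 KO group, and again the ranges overlapped (log2 fold change -0.10, 95% interval -0.35 to 0.15, limma adjusted p = 0.726). For these 3 genes, the most deeply covered of H1, the intervals leave room for differences of at most 0.35 on the log2 scale.

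H1f1, another replication-dependent linker histone, was among the 3 genes with an unadjusted p under 0.05 and is named for that, after its values were seen. Its values were 11, 10, 5 and 9 in the WT group against 4, 9, 3 and 1 in the Mettl3 KO group. Most Mettl3 KO libraries lay lower, the groups overlapped, and the log2 fold change of -1.08 (95% interval -1.96 to -0.19) did not pass the threshold (limma adjusted p = 0.139). Without Mettl3 KO 4 it was -0.69 and without Mettl3 KO 2 it was -1.46 (limma adjusted p = 0.0508). H1f3 and H1f5 gave log2 fold changes of -0.07 and 0.13. H1f10 had values of 2 to 10 in all libraries, and H1f6, the testis linker histone, was listed at 0 in all libraries but WT 2, where it had 2.

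H2A and H2B form the dimers on either side of the nucleosome core. H2ac20 (chr3:96127677-96128196, - strand), the H2A gene with the highest mean, had values of 12, 34, 30 and 29 in the WT group against 27, 27, 25 and 25 in the Mettl3 KO group. WT 1 was low, and the other WT libraries lay above all Mettl3 KO libraries. The log2 fold change was 0.08 (95% interval -0.43 to 0.59, limma adjusted p = 0.914), and without WT 1 it was -0.24 (limma adjusted p = 0.551). H2bc4 (chr13:23868182-23876891, + strand), the H2B gene with the highest mean, had 85, 89, 86 and 75 in the WT group against 105, 92, 86 and 99 in the Mettl3 KO group. The highest WT and the lowest Mettl3 KO library crossed, and the log2 fold change was 0.19 (95% interval -0.02 to 0.40, limma adjusted p = 0.322). H2bc6 had 53, 65, 38 and 49 in the WT group against 49, 50, 55 and 46 in the Mettl3 KO group, all of which lay within the WT range (log2 fold change -0.01, 95% interval -0.33 to 0.30, limma adjusted p = 0.982). H2bc21, H2ac25 and H2bc18 gave log2 fold changes of 0.02, 0.13 and -0.13.

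H3 and H4 form the tetramer at the centre of the nucleosome. H4c8 (chr13:23715220-23715689, + strand) had values of 12, 13, 15 and 10 in the WT group against 20, 19, 24 and 20 in the Mettl3 KO group. Every Mettl3 KO library lay above every WT library, with a log2 fold change of 0.70 (95% interval 0.22 to 1.17), but the gene did not pass the threshold (limma adjusted p = 0.0658). Among all genes with a mean of 10 to 30, 8.48% showed no overlap. When only genes with a mean of at least 10 were tested, the adjusted p of H4c8 was 0.0449, and over all alternatives it lay between 0.0449 and 0.174. Of the other H4 genes, whose difference from H4c8 was not tested, H4c4 had 19, 16, 12 and 22 in the WT group against 16, 15, 15 and 13 in the Mettl3 KO group (log2 fold change -0.18), and H4c14 had 21, 31, 18 and 9 in the WT group against 27, 24, 17 and 25 in the Mettl3 KO group (log2 fold change 0.32, limma adjusted p = 0.583, and from 0.01 without WT 4 to 0.57 without WT 2). Of the stretches of H4c8, 57.1% were unique. H3c4, the H3 gene with the highest mean, had 5, 9, 7 and 3 in the WT group against 4, 10, 7 and 4 in the Mettl3 KO group, nearly the same range (log2 fold change 0.05, 95% interval -0.75 to 0.84, limma adjusted p = 0.969). H3c1, the third gene with an unadjusted p under 0.05, was named after its values were seen: it had 1, 3, 2 and 1 in the WT group against 1, 0, 0 and 0 in the Mettl3 KO group, at or under 3 reads throughout, and no fold is given.

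**Figure D2:**
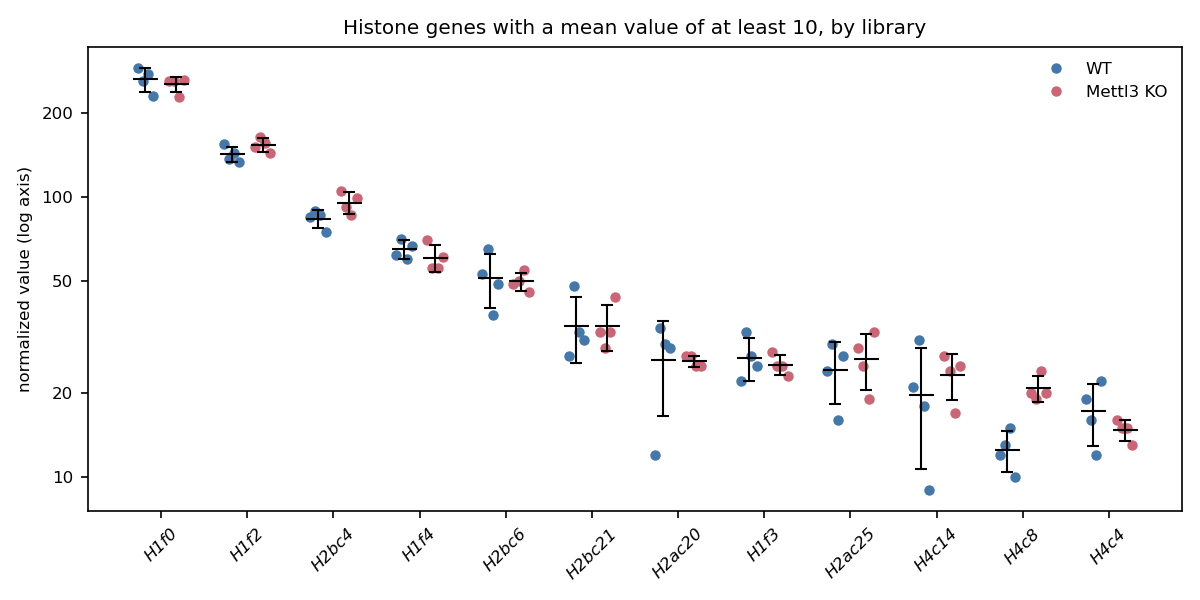
Normalized values (log axis) of the 12 histone genes with a mean of at least 10, 1 point per library for 4 WT and 4 Mettl3 KO libraries, with the mean and SD in black. The genotypes separate for H4c8 (10 to 15 in WT, 19 to 24 in Mettl3 KO) and overlap for the other genes.

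How far a difference was bounded depended on the level. Of the 12 genes with a mean of at least 10, 7 had a 95% interval within 0.5 of 0 on the log2 scale and 11 had one within 1, the exception being H4c8. Of the 31 genes with a mean of 1 to under 10, 0 had an interval within 0.5 and 7 had one within 1, and their median half-width was 1.03. In 16 of the 43 measurable genes both genotype means were at or under 3, and single folds of these are left out of the text. The median log2 fold change was 0.05 over the 12 and -0.13 over the 31 genes. Just inside the limit of measurability stood H3c1 and H4c11 with a mean of 1, and just outside H3c3, H3c13 and H2ac8 with 0.875. The 12 genes under the limit (H3c3, H3c13, H2ac8, H2bc12, H2ac7, H2bc27, H2ac21, H3c2, H2bc7, H2ac11, H2bc26-ps and H1f6) had values of 0 to 3 in every library.

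**Figure D3:**
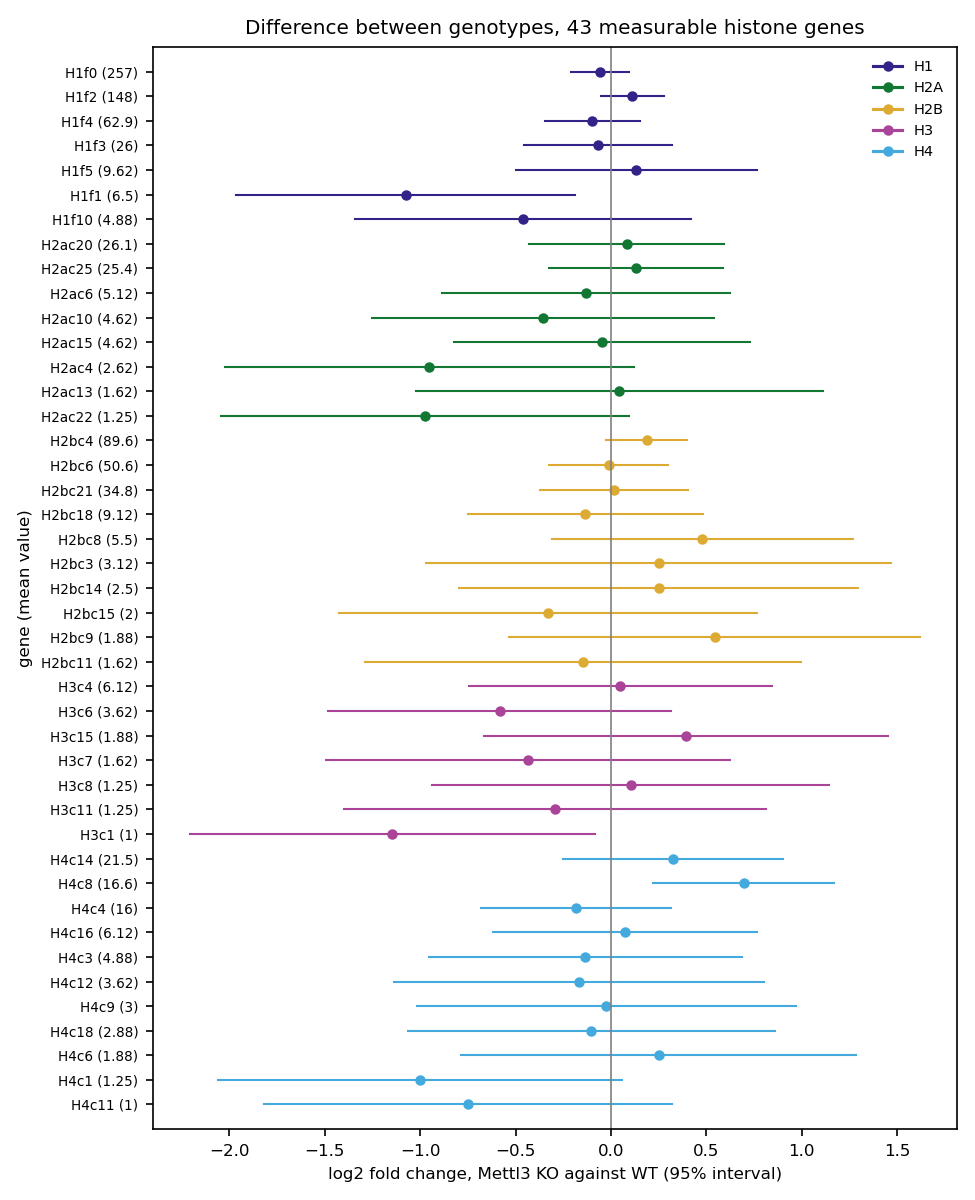
Log2 fold change of Mettl3 KO against WT with its 95% interval (limma on log2(value + 1)) for the 43 measurable histone genes. Genes are coloured and grouped by class and ordered by mean value within each class, with the mean in parentheses. Intervals widen as the mean falls, those of H4c8, H1f1 and H3c1 lie off 0 before adjustment, and values of genes at or under 3 reads depend on the pseudocount.

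Summed over all 55 genes, the normalized values were 898, 982, 863 and 820 in the WT group against 918, 901, 829 and 904 in the Mettl3 KO group. The genotypes overlapped fully, the Mettl3 KO mean being 99.7% of WT, and 101% when H1f0 was left out. This sum rests largely on a few abundant genes: H1f0, H1f2 and H2bc4 together held 55.6% of it, and the H1 class 57.9%. The genes with a mean under 10 (31 measurable and 12 not) together summed to 110 to 155 in WT and 90 to 116 in Mettl3 KO libraries, which overlapped (84.5% of WT). For H1, the sum was 521 ± 33.5 (SD, n = 4) in WT and 510 ± 24.0 (SD, n = 4) in Mettl3 KO libraries. For H2A it was 76.2 ± 17.4 and 71.2 ± 8.06, and for H2B 197 ± 26.4 and 209 ± 12.1. For H3 it was 21.5 ± 7.05 and 16.5 ± 4.43, the lowest in relation to WT at 76.7%, with ranges of 13 to 30 and 13 to 23 that overlapped. For H4 it was 75.5 ± 11.3 in WT and 82.0 ± 5.77 in Mettl3 KO libraries. The differences of all 5 classes were smaller than 1 SD of the WT libraries, but those of H3 and H4 were larger than 1 SD of the Mettl3 KO libraries. WT 2 held the highest sum of all genes together, and of H2A, H2B and H3.

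**Figure D4:**
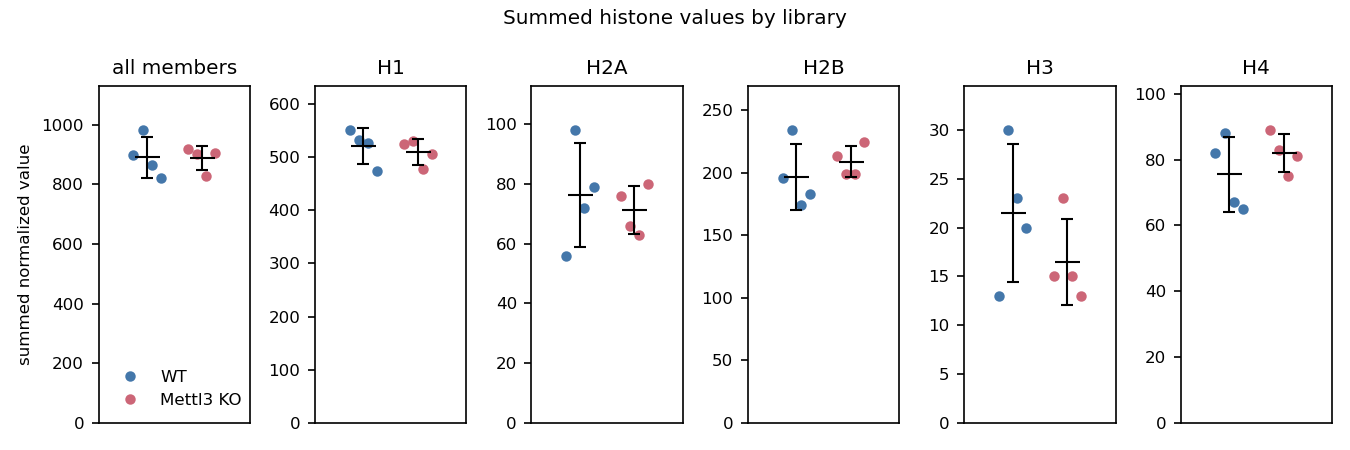
Summed normalized values of all 55 histone genes and of each class by library (linear axes from 0, own scale per panel), 1 point per library for 4 WT and 4 Mettl3 KO libraries, with the mean and SD in black. The genotypes overlap in every panel, for example from 820 to 982 in WT and from 829 to 918 in Mettl3 KO libraries for all genes.

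The sequences before the start sites are given as a description without bearing on the genotypes, and no difference between classes was tested. In the 250 bases upstream of the RefSeq start (GRCm38.p6), read on both strands, 46 of the 55 genes could be matched. CCAAT, the box bound by NF-Y, was in 37 of them (80.4%), and in 37.5% of all 27025 genes of the promoter table. All 11 H2A and all 10 H2B genes held it, as did 6 of 8 H1, 7 of 8 H3 and 3 of 9 H4 genes. TATAAA, the TATA box, was in 23 (50%), beside 14.3% of all genes: in 4 of 8 H1, 6 of 11 H2A, 5 of 10 H2B, 3 of 8 H3 and 5 of 9 H4 genes. ATTTGCAT, the octamer bound by OCT1 (Pou2f1), was in 10 (21.7%), beside 1.81% of all genes: in 6 H2B and 4 H2A genes and in 0 of H1, H3 and H4. Neighbouring H2A and H2B genes that are read in opposite directions share parts of these windows.

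Among genes that make and remove histone mRNA, a few of the 3′ end processing apparatus were called, in either direction. The 6 lists, 1 of them S phase and mitosis genes, held 103 gene symbols together, of which 100 were tested. At an adjusted p under 0.05, 2 were higher and 4 lower (6.00%, beside 7.91% of all genes). The count was 3 without WT 1, WT 2, Mettl3 KO 2 or Mettl3 KO 4, and 2 without WT 4 or Mettl3 KO 3. In the list of histone mRNA 3′ end processing, 2 of 22 genes were higher and 2 lower, with a median log2 fold change of 0.00. Lsm11, a protein of the U7 snRNP, had values of 55, 65, 77 and 64 in the WT group against 95, 77, 94 and 85 in the Mettl3 KO group. The groups met at 77, with a log2 fold change of 0.43 (SE 0.12) and a limma adjusted p of 0.0275. Snrpd3, an Sm protein of the U7 and the spliceosomal snRNPs, had 120, 128, 118 and 129 in the WT group against 143, 150, 155 and 156 in the Mettl3 KO group, without overlap (log2 fold change 0.29, SE 0.08, limma adjusted p = 0.0271). Sympk, the scaffold symplekin of the cleavage complex, had 408, 370, 439 and 377 in the WT group against 333, 315, 325 and 313 in the Mettl3 KO group, also without overlap. Its log2 fold change of -0.31 (SE 0.06) had a limma adjusted p of 0.00224.

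Srrt, the cap-binding partner ARS2, was the other lower gene, with 372, 394, 362 and 380 in the WT group against 312, 300, 342 and 347 in the Mettl3 KO group (log2 fold change -0.21, SE 0.06, limma adjusted p = 0.0296). The call of Lsm11 was lost when any library but WT 3 and Mettl3 KO 2 was left out (adjusted p from 0.0633 to 0.105), that of Snrpd3 without WT 1, WT 3 or Mettl3 KO 2, 3 or 4 (0.0606 to 0.0823) and that of Srrt without WT 1, 2 or 4 or Mettl3 KO 1 or 2 (0.0597 to 0.115), whereas that of Sympk held in each of the 17 alternatives. Slbp, which binds the stem-loop, had 93, 81, 87 and 86 in the WT group against 71, 64, 79 and 85 in the Mettl3 KO group. Most Mettl3 KO libraries lay lower, but 1 lay within the WT range, and the gene was not called (log2 fold change -0.22, 95% interval -0.45 to 0.01, limma adjusted p = 0.266). Npat, the coactivator of histone transcription, had 163, 144, 149 and 158 in the WT group against 154, 150, 154 and 154 in the Mettl3 KO group (log2 fold change -0.00, 95% interval -0.16 to 0.15, limma adjusted p = 0.995).

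Beside 7.91% of all genes called and 20.6% at an unadjusted limma p under 0.05, no gene was called among the 8 of histone transcription (1 at an unadjusted limma p under 0.05, median log2 fold change -0.06), the 14 of histone mRNA translation and decay (4, median -0.03) or the 19 histone chaperones (2, median 0.03). Replacement histones are deposited outside S phase. Of the 12 symbols in their list, 9 were tested, with a median log2 fold change of 0.03. Also in the list, H4f16 is another symbol of H4c16, which was tested among the histone genes instead (log2 fold change 0.07). H3f3b, 1 of the genes for the variant H3.3, was lower: it had 186, 189, 189 and 207 in the WT group against 160, 162, 158 and 162 in the Mettl3 KO group, without overlap (log2 fold change -0.26, SE 0.07, limma adjusted p = 0.0232). Its sister gene H3f3a had 62, 45, 54 and 59 in the WT group against 63, 53, 49 and 44 in the Mettl3 KO group and was not called (log2 fold change -0.07, limma adjusted p = 0.843). The call of H3f3b was lost without WT 4 (adjusted p = 0.0803) and without Mettl3 KO 3 (adjusted p = 0.0657).

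In the list of S phase and mitosis genes, 1 of 28 was called (3.57%, beside 7.91% of all genes), and 7 had an unadjusted limma p under 0.05 (beside 20.6% of all genes). Cdk1, the kinase that drives entry into mitosis, had 15, 24, 12 and 18 in the WT group against 11, 7, 4 and 7 in the Mettl3 KO group, without overlap (log2 fold change -1.17, SE 0.31, limma adjusted p = 0.0201). The call was lost without WT 2, WT 4 or Mettl3 KO 2, 3 or 4, with adjusted p from 0.0509 to 0.0972. The list's median log2 fold change was -0.25, with 22 values below and 6 above 0. Mki67, the proliferation marker, had 321, 491, 200 and 385 in the WT group against 285, 270, 204 and 268 in the Mettl3 KO group (log2 fold change -0.38, limma adjusted p = 0.181). Summed, the list ran from 931 to 1661 in WT and from 976 to 1158 in Mettl3 KO libraries, with WT 3 the lowest and WT 2 the highest of all. Gins1, of the same list, had 8, 9, 5 and 10 in the WT group against 12, 9, 15 and 19 in the Mettl3 KO group. Its log2 fold change was 0.70, and it was not called either (limma adjusted p = 0.182). Mki67 and Gins1 were not named by the rule and were chosen after their values were seen.

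**Figure D5:**
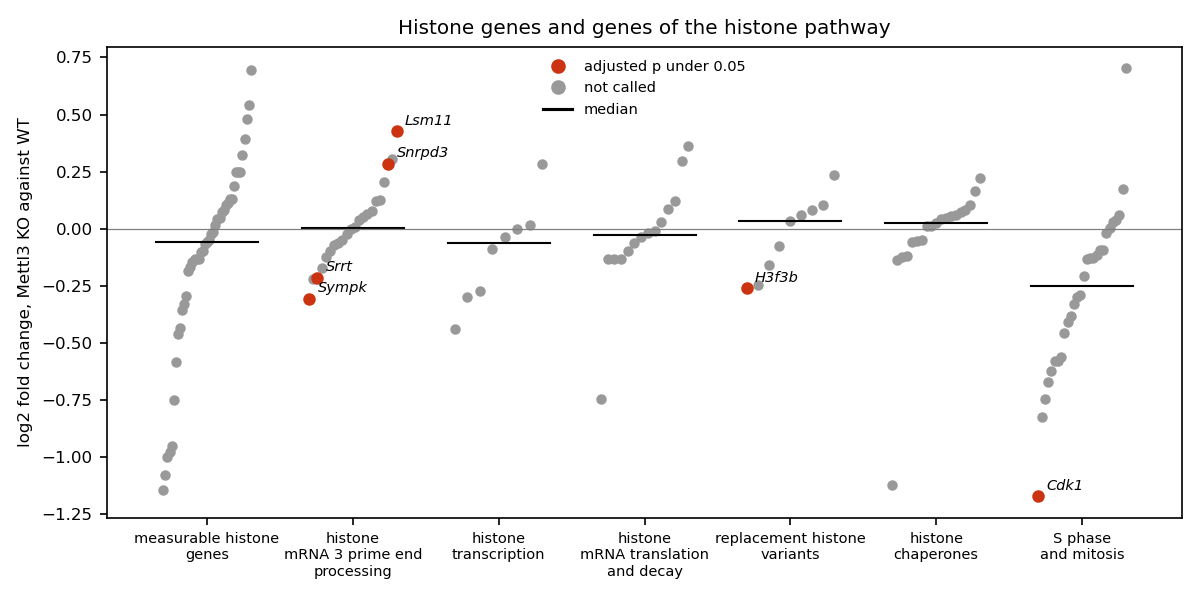
Log2 fold change of Mettl3 KO against WT (limma on log2(value + 1)) for the 43 measurable histone genes and for 6 lists of genes (5 of the histone pathway and 1 of S phase and mitosis), 1 point per gene, red where the adjusted p was under 0.05, with the median as a black line. Lsm11 and Snrpd3 are the higher and Srrt, Sympk, H3f3b and Cdk1 the lower calls, and the histone genes hold 0.

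The 7 cardiomyocyte markers summed to 85978 to 96171 over all libraries, most of it from Ttn, and 1 of them, Ryr2, the calcium release channel, was lower (log2 fold change -0.23, limma adjusted p = 0.000137, without overlap). Markers of other cells differed with genotype as well. Of the fibroblast markers, 7 of 8 were higher (summed 3648 to 4172 in WT and 4711 to 5671 in Mettl3 KO libraries), and of the endothelial markers, 4 of 8 were lower (5172 to 5361 and 4466 to 4867). All 5 atrial markers were called higher (192 to 432 and 598 to 1392), but Mettl3 KO 1 lay within the WT range for 4 of them: Bmp10, listed at 0 there and in all WT libraries, Sln (10, WT 0 to 12), Myl7 (23, WT 0 to 26) and Myl4 (113, WT 17 to 114). Its sum exceeded WT through Nppa (452, WT 175 to 292). WT 3 was the lowest library for Sln, Myl7 and Myl4 (0, 0 and 17). Of 8 macrophage markers and of 8 markers of smooth muscle and pericytes 1 each was lower, and of the 8 lymphocyte and 7 tested blood cell markers 0 were called (1 and 2 at an unadjusted limma p under 0.05). Over all genes, 7.91% were called and 20.6% had such a p. The part of these differences in the values of H4c8 and of the pathway genes was not tested.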

How the data were processed

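RNA of mouse hearts was sequenced as 8 stranded, single-end total RNA libraries. As the methods state, the authors used Trimmomatic 0.39 for trimming, aligned to mm39 with STAR 2.7.11a, removed duplicate (Picard 3.1.1), multi-mapping, ribosomal and mitochondrial reads, counted by strand over exons with featureCounts 2.0.4 without reads on several genes, and normalized with DESeq2 1.36.0. Values of near-identical genes can be lowered by this, and those of short abundant transcripts by the removal of duplicates, but neither was measured. The deposited values are treated as a score, normalized read numbers rounded to whole numbers. All 8 columns were used.

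The 20313 genes whose mean reached 1 (2732 did not) entered 1 limma 3.58.1 model (R 4.3.3) of log2(value + 1), with genotype alone as its term, a trend of the variance with the mean, two-sided tests and Benjamini-Hochberg adjustment. Fold changes on this scale understate those of low genes. The script was tested on simulated data. Library factors, and from them reads, were estimated from skipped and crowded low values. Intervals and the floor of 3 reads leave other errors aside. Libraries of a genotype differed by 1.11 to 1.86 times the sampling noise (chi-square per degree of freedom) and each was kept as a sample.

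Named were histone genes that were called or did not overlap, the highest mean of each class, the 5 highest means, Mettl3, Slbp, Npat, Lsm11 and called pathway genes, and others as stated. The members, lists and rules were chosen with earlier results of these data known. Transcripts were from GENCODE vM21 and promoters from RefSeq (GRCm38.p6), matched by gene ID or symbol, without joining coordinates. H4f16 of the replacement list is another symbol of H4c16.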

Additional observations from a re-analysis of the deposited data

Results flagged for a closer look

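In 4 of 52 groups of 4 libraries that were searched, 1 library stood far from the others by Dixon's 95% criterion, which sets its gap to the nearest library against the whole range. Chance gives about 1 in 20. H1f0 was 228 in Mettl3 KO 3 and 259 to 261 in the other Mettl3 KO libraries (gap 0.939 of the range). H3c1 was 1 in Mettl3 KO 1 and 0 in the others (gap 1 of the range, from a single unit). Npat was 150 in Mettl3 KO 2 and 154 in each of the others (gap 1 of the range). H3f3b was 207 in WT 4 and 186 to 189 in the other WT libraries (gap 0.857 of the range).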

How the results depend on the processing

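Fitted results were recomputed under 17 alternatives (16 for H3c4 and H1f1, whose means are under 10), of which limma voom on recovered reads was chosen after seeing the data. The count of called histone genes was 0 in 16 of them and 1 (H4c8, log2 fold change 0.70, adjusted p = 0.0449) when genes with a mean of at least 10 were tested. Their median log2 fold change ran from -0.14 to 0.08, being above 0 without WT 2 (0.08) and for a mean of at least 10 (0.05). Mettl3 was lower throughout (-0.71 to -0.60). The pathway lists gave 2 to 8 calls when single libraries were left out and 6 or 7 otherwise. Over 18 single genes and their alternatives, signs turned only among genes that were not called, without 1 library each: H2bc6 (0.01 to 0.11), H2ac20 (-0.24), H3c4 (-0.19 to -0.03) and Npat (0.01 to 0.03). Without single libraries, H2bc6 ranged from -0.14 to 0.11, H2ac20 from -0.24 to 0.23, H3c4 from -0.19 to 0.25 and Npat from -0.033 to 0.026. The summed levels moved by less than the spread between libraries under equal library totals and without the highest member. The cause of these changes was not tested.

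Libraries of the same number did not deviate together (correlations 0.07, 0.03, -0.02 and 0.06), so the numbers were not taken as pairs. With a replicate block, 0 histone genes and 6 pathway genes were called, 5 of them shared with the fit without the block, and Srrt was not (adjusted p = 0.0574). The block gave H4c8 an adjusted p of 0.0869 and Mettl3 one of 0.00225. Depth limits the histone genes with a mean under 10 and says little of those under 3 reads.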
